A study of Rattus norvegicus with 9 samples.

Results

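The lungs of rats that were mechanically ventilated in 21% oxygen were compared with the lungs of rats that breathed the same gas spontaneously. The comparison took every column of the deposited table titled for these groups, 4 of 8 samples in all, with 2 ventilated samples (a and b) and 2 spontaneous samples (a and b). Total RNA of whole rat lung had been hybridised to a rat expression array. The other 4 samples came from rats ventilated in 100% oxygen (2 samples, one of them on 2 arrays that were averaged) and rats breathing 100% oxygen spontaneously (2 samples). The labels gave no strain, age, sex, duration or tidal volume. They also did not state whether samples a and b were different rats, so each p-value below is set by sample-to-sample spread that may be no more than technical.

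Mechanical ventilation pushes gas into the lung under positive pressure, and the cyclic stretch this puts on alveolar epithelium, capillary endothelium and matrix is known to induce cytokines such as interleukin 6 and the monocyte chemoattractant Ccl2. Many of these genes are switched on through NF-kappaB or through factors that bind cAMP response elements. Alveolar type 2 cells make surfactant and take up fluid through the epithelial sodium channel, and the capillary endothelium carries angiotensin-converting enzyme and thrombomodulin on its surface.

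Values are array intensities that the deposited table had scaled so that the trimmed mean of each array was 800, and a change is the difference of group means of log2(intensity + 40), ventilated minus spontaneous, with its standard error (SE). Of 5244 probe sets bright enough to test, 760 (14.5%) were called at an adjusted p under 0.05 by limma with Benjamini-Hochberg adjustment. Of these, 367 (7.00% of those tested) were higher and 393 (7.49%) were lower in ventilated lungs, against 1575 probe sets of either direction at an unadjusted p under 0.05. The median change over all tested probe sets was -0.06. Counted as genes, 212 of 3181 (6.66%) were higher and 222 (6.98%) were lower, and 66 of the higher and 83 of the lower had changed by at least 2-fold. Counts of list members below are to be read against these 6.66% and 6.98%. With 2 samples a group, the values of ventilated and spontaneous lungs did not overlap in 60.8% of all tested genes.

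Both spontaneous samples at 21% oxygen carried a line for a lot in their labels and neither ventilated sample did, so lot line and ventilation cannot be told apart within these 4 samples. The ventilated sample b at 100% oxygen had been run on an array with that line and an array without it. Over the 760 called probe sets these 2 arrays differed by a median of 0.09 on the log2 scale, against a median change of 0.87 with ventilation, and in 6 of the 760 (0.8%) they differed by as much as the change. The 760 were selected by that same change, and arrays of the same sample cannot show a difference between samples. Nothing is therefore read from this about the part of the lot line. A fit of all 9 arrays with the lot line as a block called 106 probe sets, 50 higher and 56 lower. The ratio of the 3' to the 5' signal was 1.23 and 1.11 in ventilated and 1.2 and 1.29 in spontaneous lungs for the glyceraldehyde-3-phosphate dehydrogenase control, and 1.02 and 1.03 against 1.05 and 1.06 for the actin control. In bulk tissue, fewer cells of a type and less RNA per cell cannot be told apart.

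**Figure D1:**
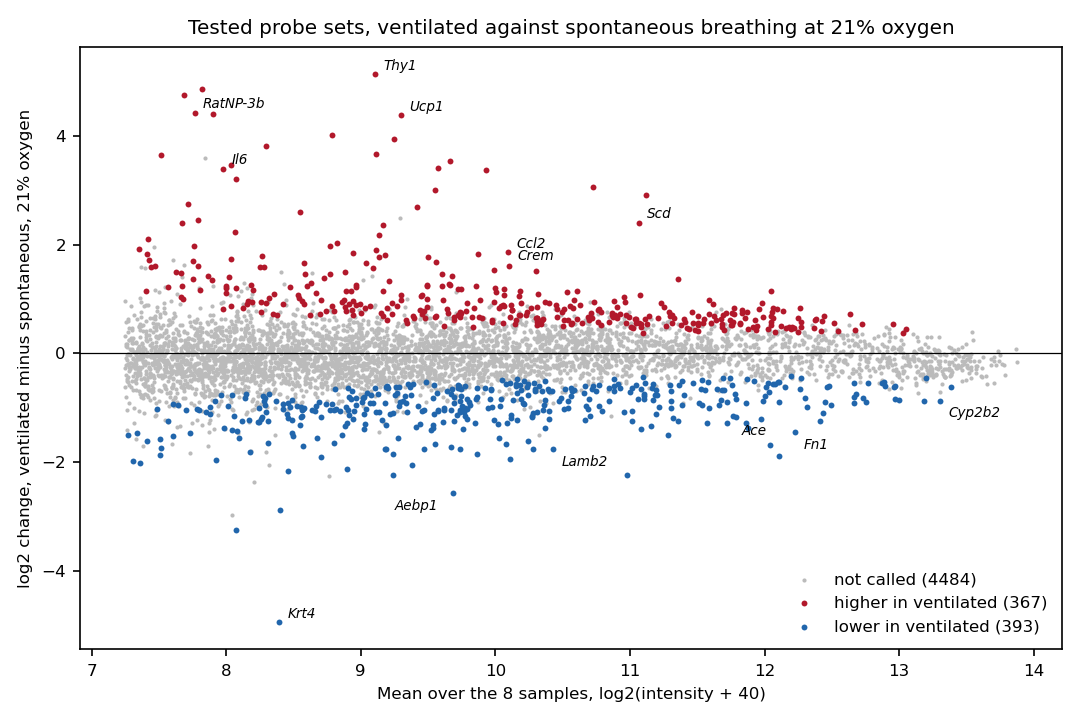
Change of each of the 5244 tested probe sets (vertical axis, log2, ventilated minus spontaneous at 21% oxygen) against its mean level over the 8 samples (horizontal axis, log2 of intensity + 40). The 367 probe sets called higher are red, the 393 called lower are blue, and the rest are grey. Thy1 lay highest at 5.13 and Krt4 lowest at -4.93, a value that follows the offset because Krt4 was listed below 0 in ventilated lungs.

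The sequences below are the promoter windows of Il6 and Crem. They are shown because both genes rose under every alternative setting in which they were tested. Their windows also hold elements of the kind described above. Each runs 5′ to 3′ in the direction of the gene, from 250 bases before to 50 bases after a RefSeq start on the GRCr8 assembly, with the searched motifs in capitals. The Il6 window lies at chr4:5894526-5894825 on the minus strand, and the Crem windows are those of its middle start (chr17:58984547-58984846) and its last start (chr17:58985240-58985539), both on the plus strand.
Il6: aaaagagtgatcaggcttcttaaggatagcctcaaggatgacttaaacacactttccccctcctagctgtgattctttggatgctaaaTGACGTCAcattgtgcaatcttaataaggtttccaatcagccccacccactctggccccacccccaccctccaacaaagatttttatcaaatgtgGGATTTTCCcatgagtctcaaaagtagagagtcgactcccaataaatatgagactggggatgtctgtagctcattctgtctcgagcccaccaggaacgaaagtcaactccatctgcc
Crem middle start: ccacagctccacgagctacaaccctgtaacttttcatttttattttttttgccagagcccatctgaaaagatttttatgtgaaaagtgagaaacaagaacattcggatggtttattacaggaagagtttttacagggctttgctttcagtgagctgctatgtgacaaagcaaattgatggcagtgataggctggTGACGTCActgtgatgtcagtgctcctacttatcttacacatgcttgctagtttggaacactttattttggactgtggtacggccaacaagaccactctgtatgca
Crem last start: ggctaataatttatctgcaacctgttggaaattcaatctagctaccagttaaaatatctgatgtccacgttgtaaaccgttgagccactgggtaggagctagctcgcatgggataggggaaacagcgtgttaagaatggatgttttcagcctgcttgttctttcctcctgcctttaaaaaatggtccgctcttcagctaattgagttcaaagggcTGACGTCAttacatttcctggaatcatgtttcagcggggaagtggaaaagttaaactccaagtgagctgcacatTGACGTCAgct
The motifs searched on both strands were the cAMP response element TGACGTCA and the kappaB-type motif GGANTTTCC, which do not overlap here. The first was found in 1.83% and the second in 1.28% of 33465 rat promoter windows of this length. Il6 held one of each, 162 and 67 bases before its start. Crem held the cAMP response element in 2 of its 3 windows and 2 copies of it in the last. Among 78 genes named in the text that had a window, 4 held the cAMP response element, the others being Acadm and Ltbp1, and 1 held the kappaB-type motif. A match describes the letters and was not tested as a binding site.

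Il6, an acute-phase and leukocyte-activating cytokine, read 377.2 and 384.4 in ventilated lungs and was listed below 0 in both spontaneous lungs (-17.7 and -54.4). It was called higher (adjusted p = 4.8e-05). Because the spontaneous lungs gave no level, the size of its log2 value follows the offset, at 3.39 with 40 and 5.6 and 2.53 with offsets of 1% and 10% of the trimmed mean, and is not a fold. Ccl2, which draws monocytes into tissue, read 1448.8 and 1401.3 in ventilated lungs and 333.6 and 395.6 in spontaneous lungs, a change of 1.86 (SE 0.16, adjusted p = 4.3e-04). In both genes all ventilated values lay above all spontaneous ones, while 60.8% of all tested genes had no overlap in either direction. The dimmer tested probe set of Ccl2 gave 1.08 (adjusted p = 0.0041). The dimmer probe set of Il6 was listed below 0 in all 4 samples and was not tested.

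Crem, a cAMP-responsive transcription factor gene whose internal promoter gives the inducible repressor ICER, read 1006.5 and 1038.3 in ventilated lungs against 302.4 and 318.6 in spontaneous lungs. Its change was 1.6 (SE 0.12, adjusted p = 3.2e-04). Of its 4 probe sets, 3 were tested and all 3 rose, by 1.6, 1.83 and 1.19, while the fourth was near 0 in all 4 samples. The array does not tell which of the 3 starts was used.

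Il1b, the central inflammasome cytokine, read 3318.0 and 2473.9 in ventilated lungs and 1581.3 and 1794.3 in spontaneous lungs (0.75, SE 0.20, adjusted p = 0.04). Il1r2, the decoy receptor that sequesters interleukin 1, rose with it, at 1791.4 and 1632.1 against 997.8 and 1118.1 (0.67, SE 0.13, adjusted p = 0.013). Selp, the endothelial P-selectin that slows passing leukocytes, read 793.6 and 665.8 in ventilated lungs and 386.6 and 369.9 in spontaneous lungs (0.88, SE 0.15, adjusted p = 0.01). The ranges of the groups did not overlap in any of these genes, as in 60.8% of all tested genes. In the adhesion and NF-kappaB list that holds Selp, 2 of 15 tested genes rose and 1 fell, with a median of -0.05. Over all tested genes 6.66% rose and 6.98% fell.

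Cx3cl1, Ccl5 and Tgfb1 fell. Cx3cl1, the membrane-bound endothelial chemokine fractalkine, read 344.0 and 349.6 in ventilated lungs and 615.7 and 661.7 in spontaneous lungs (-0.81, SE 0.15, adjusted p = 0.013). Ccl5, a T cell and eosinophil attractant, read 1919.5 and 2115.8 against 3351.1 and 3202.6 (-0.69, SE 0.15, adjusted p = 0.024). Tgfb1, the fibrogenic growth factor that latent binding proteins hold in the matrix, read 255.0 and 343.2 against 512.5 and 727.1 (-0.95, SE 0.24, adjusted p = 0.037). Over the list of cytokines, chemokines and their receptors, 4 of 26 tested genes rose and 4 fell, with a median change of -0.04, close to the median of all probe sets.

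Among immediate early and stress response genes, 2 of 27 tested rose (Crem and Egr1) and 3 fell, with a median of -0.09. As 6.66% of all tested genes rose and 6.98% fell, nothing is read from these counts about the list. Egr1, a zinc finger factor that answers stretch and growth factors, read 1579.5 and 1760.8 in ventilated lungs and 997.2 and 1137.9 in spontaneous lungs (0.63, SE 0.13, adjusted p = 0.016). Its 3 dimmer probe sets were not called and gave 0.02, -0.72 and -1.11. Fos, the AP-1 subunit, read 1063.9 and 1189.4 in ventilated lungs against 1154.5 and 1064.7 in spontaneous lungs, and was not called (0.02, SE 0.12, adjusted p = 0.93).

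Klf4 and a pair of mRNA decay genes were the members that fell. Klf4, a Kruppel-like factor of endothelium and epithelium, read 1084.9 and 1075.4 in ventilated lungs and 2147.6 and 2079.0 in spontaneous lungs (-0.94, SE 0.13, adjusted p = 0.0046). Zfp36l1 and Zfp36, RNA-binding proteins that direct AU-rich cytokine mRNAs to decay, changed by -0.87 (SE 0.14, adjusted p = 0.0074) and -0.66 (SE 0.13, adjusted p = 0.015). Zfp36 read 1148.0 and 1066.0 in ventilated lungs and 1787.6 and 1753.9 in spontaneous lungs. The dimmer probe set of Zfp36l1 gave -0.47 and was not called.

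The calls of Il6, Ccl2, Crem and Klf4 were kept when any 1 of the 8 samples was left out. Selp lost its call without ventilated sample a and Zfp36l1 without ventilated sample b (adjusted p = 0.071 and 0.056). Egr1 lost its call without ventilated b or spontaneous a (0.063 to 0.098), Il1r2 without ventilated a, ventilated b or spontaneous a (0.052 to 0.08), and Cx3cl1 and Zfp36 without ventilated a, ventilated b or spontaneous b (0.051 to 0.087). Ccl5 lost it without any of the 4 samples at 21% oxygen (0.072 to 0.12). Il1b lost it without any of these 4 or either ventilated sample at 100% oxygen (0.057 to 0.2), and Tgfb1 without ventilated a, ventilated b, spontaneous b or ventilated a at 100% oxygen (0.051 to 0.18). The number of cytokine list members that rose was 2 without ventilated a, ventilated b or spontaneous a. With the lot line as a block Il6, Ccl2 and Crem stayed called and the others of these genes did not.

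**Figure D2:**
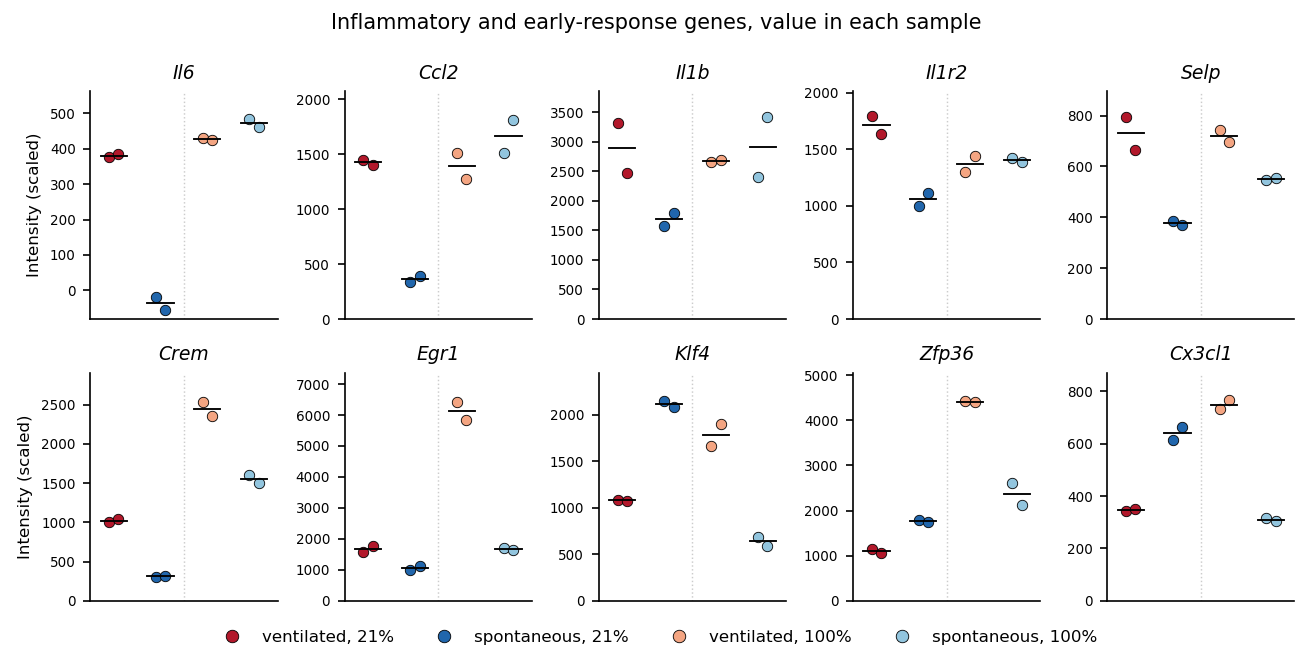
Intensity of 10 inflammatory and early-response genes (vertical axis, arrays scaled to a trimmed mean of 800, linear) in each sample, in the order ventilated and spontaneous at 21% oxygen, then ventilated and spontaneous at 100% oxygen. Points are samples and bars are means of 2. Il6, Ccl2 and Crem were lower in spontaneous lungs at 21% oxygen than in each of the other groups, while Klf4, Zfp36 and Cx3cl1 were lower in ventilated than in spontaneous lungs at 21% oxygen.

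Of 8 tested neutrophil genes, 4 rose and 1 fell. RatNP-3b, an alpha-defensin stored in neutrophil granules, read 1116.8 and 1297.1 in ventilated lungs and 8.8 and 28.7 in spontaneous lungs (4.42, SE 0.30, adjusted p = 1.4e-04), a value that was 5.61 and 3.71 with the smaller and larger offset. A second defensin, Defa5, read 511.9 and 341.6 against 102.4 and 189.4 (1.34, SE 0.35, adjusted p = 0.04), and the collagenase Mmp8 read 1154.6 and 889.2 against 648.9 and 600.3 (0.67, SE 0.17, adjusted p = 0.038). Closely related defensin genes can share signal on such arrays.

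The calprotectin subunits S100a8 and S100a9, abundant in neutrophils, gave small values. S100a8 read 10467.9 and 10012.8 in ventilated lungs and 7835.1 and 7890.2 in spontaneous lungs (0.38, SE 0.10, adjusted p = 0.043), while S100a9 was not called (0.00, SE 0.14, adjusted p = 0.99). Lcn2, the iron-binding lipocalin that both neutrophils and epithelium make, was lower, at 2767.3 and 3142.6 against 4142.2 and 3997.6 (-0.46, SE 0.12, adjusted p = 0.043). The summed level of the list was 26577 and 26725 in ventilated and 24414 and 22622 in spontaneous lungs, and none of 8 tested macrophage genes was called. Of the 5 called neutrophil genes, RatNP-3b alone kept its call when any 1 of the 8 samples was left out. Without 1 sample Mmp8, Defa5, Lcn2 and S100a8 reached adjusted p = 0.19 to 0.21, losing the call without either ventilated sample or spontaneous a at 21% oxygen, without spontaneous b except for Defa5, and also without 2 or 3 of the samples at 100% oxygen. The number that rose was then 1 without ventilated a, ventilated b or spontaneous a, and 2 without spontaneous b or either ventilated sample at 100% oxygen.

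Of the gene lists, that of T lymphocytes and thymocytes (T lymphocyte genes below) had the highest median change (2.80). Of its 12 tested genes 10 rose and none fell. Thy1, a surface glycoprotein that marks rat thymocytes, read 7727.4 and 9574.9 in ventilated lungs and 258.1 and 165.6 in spontaneous lungs (5.13, SE 0.22, adjusted p = 1.2e-05). The T cell receptor chain gene Cd3g read 4466.6 and 4690.9 against 602.6 and 474.5 (3.01, SE 0.16, adjusted p = 4.0e-05), and Cd3d, its partner, changed by 4.01 (SE 0.42, adjusted p = 0.0012). Ventilated samples a and b lay far above every other sample in each of these genes.

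Lck, the kinase that phosphorylates the receptor, read 8395.9 and 8425.5 in ventilated lungs and 1316.4 and 718.8 in spontaneous lungs (3.06, SE 0.23, adjusted p = 3.2e-04). Cd247, the zeta chain, read 1831.8 and 1818.4 against 273.9 and 262.0 (2.60, SE 0.22, adjusted p = 4.4e-04). The coreceptor genes Cd8b and Cd8a changed by 2.17 (SE 0.24, adjusted p = 0.0017) and 4.74 (SE 0.99, adjusted p = 0.019), and the scavenger receptor gene Cd5 by 1.70 (SE 0.23, adjusted p = 0.0038). Cd8a read 2717.9 and 2941.4 in ventilated lungs and -28.6 and 246.6 in spontaneous lungs. Its size follows the offset, with 4.17 at the larger offset.

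The summed level of the 15 measured T lymphocyte genes was 35960 and 38395 in ventilated lungs and 4195 and 4068 in spontaneous lungs, and 3092 to 3894 at 100% oxygen. Rag1, the recombinase of developing lymphocytes, was near 0 at 43.6 and 3.9 against 37.1 and 39.1, and Cd28 was listed below 0 in all 4 samples. Cd2 was too dim to test, at 454.7 and 443.1 against 56.0 and 91.0. No natural killer gene of 5 tested was called, and the B cell receptor gene Cd79b fell, at 378.2 and 363.7 against 730.8 and 727.4 (-0.90, SE 0.16, adjusted p = 0.0097). Among the named genes of these lineages, Cd8a lost its call without spontaneous a and Cd79b without ventilated b. Without ventilated a or ventilated b, Cd8a was too dim on average to test. It therefore passed the brightness filter through the ventilated lungs at 21% oxygen. With the lot line as a block, 6 of the 10 genes were called.

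Fat genes rose beside them, 9 of 18 tested, and 1 fell (median 0.87). The marker lists cover lung cells and other tissues that a dissected chest sample could hold. Whether the samples differed in such tissue was not tested. Ucp1, the uncoupling protein that defines brown fat, read 6179.1 and 6247.4 in ventilated lungs and 248.0 and 271.2 in spontaneous lungs (4.38, SE 0.15, adjusted p = 6.7e-06). Fabp4, the fatty acid carrier of adipocytes, read 3387.3 and 3456.9 against 542.5 and 459.3 (2.68, SE 0.22, adjusted p = 3.8e-04), and Cidea, a lipid droplet protein, read 1945.0 and 2029.1 against 343.9 and 363.6 (2.36, SE 0.28, adjusted p = 0.0021). All 3 separated the groups widely.

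Scd, the stearoyl-CoA desaturase that adipocytes and alveolar type 2 cells both use to make unsaturated lipid, read 6645.4 and 6571.2 in ventilated lungs and 1165.1 and 1271.2 in spontaneous lungs (2.40, SE 0.11, adjusted p = 1.2e-05). Fabp3 changed by 1.77 (SE 0.23, adjusted p = 0.0032). Lipe, the hormone-sensitive lipase, was the member that fell, at 918.0 and 1021.4 against 1743.0 and 2185.9 (-0.98, SE 0.25, adjusted p = 0.036), and it lost its call without any of the 4 samples at 21% oxygen (0.058 to 0.15). The summed level of 25 measured fat genes was 39750 and 41559 in ventilated lungs, 22062 and 21680 in spontaneous lungs and 18888 to 22075 at 100% oxygen. The adipocyte coat protein gene Plin1 and the brown fat deiodinase gene Dio2 were listed below 0 in all 4 samples.

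Of 15 tested skeletal muscle genes 3 rose and 12 were not called (median 0.05). Those that rose included the actin gene Acta1 at 3405.0 and 3495.1 in ventilated lungs against 1992.2 and 1803.9 in spontaneous lungs (0.85, SE 0.13, adjusted p = 0.0055) and the creatine kinase gene Ckm (0.82, SE 0.16, adjusted p = 0.014), which lost its call without ventilated b or spontaneous b (0.06 to 0.089). The summed level of 21 measured skeletal muscle genes was 9713 and 9861 in ventilated and 7336 and 7095 in spontaneous lungs. Of 3 tested squamous genes 1, Krt4, was called. Krt4, the keratin of lining epithelia such as the oesophagus, was listed below 0 in both ventilated lungs (-8.7 and -35.5) and read 1139.8 and 1214.3 in spontaneous lungs (adjusted p = 6.8e-06). Its log2 value follows the offset, at -4.93 with 40 and -7.21 and -3.97 with offsets of 1% and 10% of the trimmed mean. Krt5, a basal cell keratin, was too dim on average to test, at 668.7 and 736.8 against 4.7 and 54.9.

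**Figure D3:**
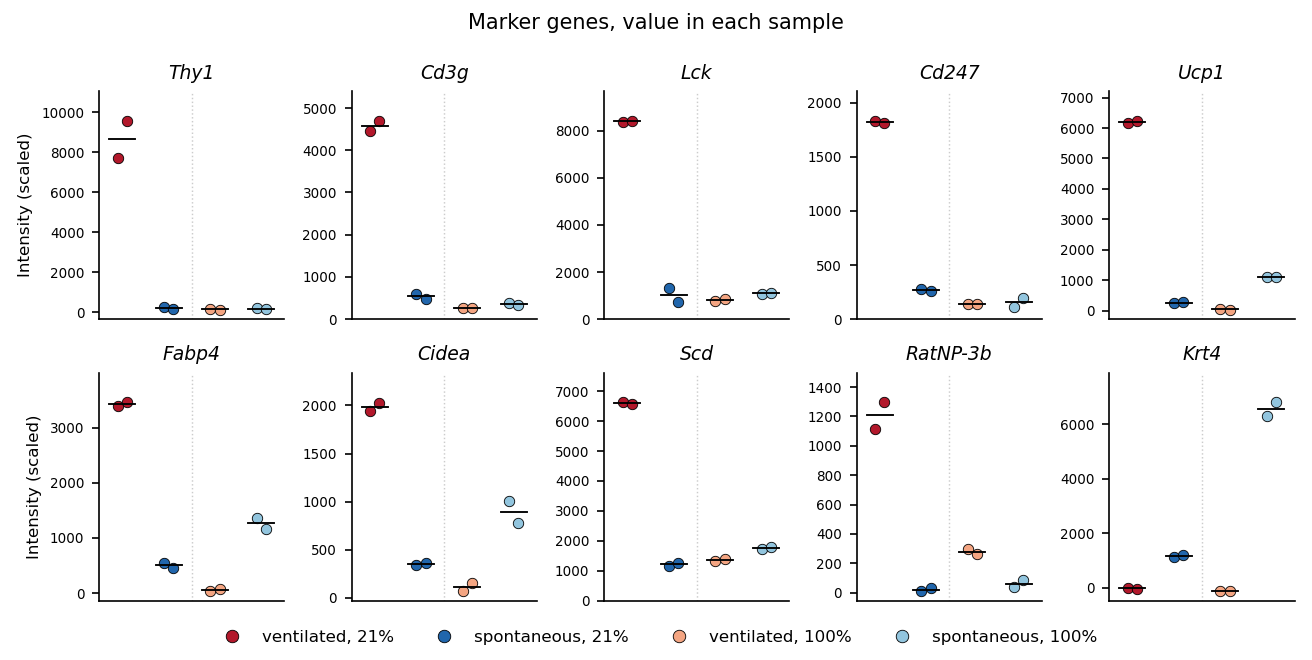
Intensity of 10 marker genes (vertical axis, linear, arrays scaled to a trimmed mean of 800) in each sample, ventilated and spontaneous at 21% oxygen on the left and ventilated and spontaneous at 100% oxygen on the right of each panel. Points are samples and bars are means of 2. Thy1, Cd3g, Lck and Cd247, of the T lymphocyte and thymocyte list, were high in the ventilated lungs at 21% oxygen alone. After these lungs, Ucp1, Fabp4 and Cidea were highest in spontaneous lungs at 100% oxygen, and Krt4 was listed below 0 in both ventilated groups.

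Of 46 tested genes of mitochondrial respiration 22 rose and none fell, with a median of 0.51 and 44 of 46 positive. Ndufa9, an accessory subunit of complex I, read 1476.3 and 1456.3 in ventilated lungs and 466.3 and 589.1 in spontaneous lungs (1.42, SE 0.17, adjusted p = 0.0022). The complex I subunit genes Ndufc2 and Ndufb8 changed by 1.37 (SE 0.23, adjusted p = 0.0079) and 0.65 (SE 0.11, adjusted p = 0.0078). One dim probe set of Ndufb8 gave -2.25 and was not called.

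Of 11 tested cytochrome oxidase genes 5 rose and none fell. Cox7b read 2973.1 and 2681.7 in ventilated lungs and 1316.9 and 1622.5 in spontaneous lungs (0.93, SE 0.14, adjusted p = 0.005), and Cox8b, the isoform of muscle and brown fat, read 1408.5 and 1534.0 against 367.2 and 442.5 (1.77, SE 0.15, adjusted p = 4.4e-04). Uqcrfs1, the Rieske protein of complex III, changed by 0.83 (SE 0.13, adjusted p = 0.007). The count of respiratory genes that rose was 7 without ventilated a, 6 without ventilated b, 8 without spontaneous a and 12 without spontaneous b, and 1 with the lot line as a block.

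In the citric acid cycle and fatty acid oxidation, 7 of 33 tested genes rose and 2 fell (median 0.35). The acyl-CoA dehydrogenases Acadl and Acadm, which begin beta-oxidation of long and medium chains, changed by 1.14 (SE 0.18, adjusted p = 0.0068) and 0.63 (SE 0.13, adjusted p = 0.018). Acadl read 2937.1 and 2980.7 in ventilated lungs and 1176.8 and 1481.3 in spontaneous lungs. Decr1, which handles unsaturated chains, changed by 0.84 (SE 0.13, adjusted p = 0.007).

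The members that fell act at the entry of fatty acids. Cpt1a, the liver-type carnitine palmitoyltransferase, read 835.2 and 916.1 in ventilated lungs against 1310.3 and 1437.2 in spontaneous lungs (-0.63, SE 0.17, adjusted p = 0.044), and the acyl-CoA synthetase gene Acsl3 changed by -0.52 (SE 0.14, adjusted p = 0.048). The number of genes that rose was 2 without either ventilated sample, 5 without spontaneous a and 3 without spontaneous b. Decr1 lost its call without ventilated a (adjusted p = 0.051), Ndufb8 without ventilated a and Ndufc2 without ventilated b (0.052 each), Acadm without ventilated a, ventilated b or spontaneous b (0.058 to 0.1), Cpt1a without any of the 4 samples at 21% oxygen or either ventilated sample at 100% oxygen (0.052 to 0.18), and Acsl3 without any of the 8 (0.061 to 0.17). The summed fat and skeletal muscle levels given above were higher in ventilated lungs as well, and their part in the rise of the respiratory and oxidation genes was not tested.

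Of 23 tested cell division genes, 9 rose and none fell (median 0.43). Odc1, the rate-limiting enzyme of polyamine synthesis, read 1242.8 and 1531.4 in ventilated lungs and 484.9 and 686.5 in spontaneous lungs (1.20, SE 0.19, adjusted p = 0.0074). The mitotic cyclin gene Ccnb1 read 417.7 and 378.7 against 117.9 and 118.0 (1.47, SE 0.24, adjusted p = 0.0075), and its kinase gene Cdk1 changed by 0.71 (SE 0.16, adjusted p = 0.025). Of the DNA synthesis genes, Pcna, the polymerase clamp, read 4321.4 and 3979.4 against 2697.0 and 2632.0 (0.63, SE 0.12, adjusted p = 0.012).

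Dut, which clears dUTP, and Top2a, the mitotic topoisomerase, changed by 1.12 (SE 0.22, adjusted p = 0.015) and 0.79 (SE 0.18, adjusted p = 0.026). The count of division genes that rose was 2 without ventilated a, 1 without ventilated b, 5 without either spontaneous sample at 21% oxygen and 6 without any of the samples at 100% oxygen. It was 0 of 23 with the lot line as a block. Of the named genes, Odc1 lost its call without ventilated b, Ccnb1 without ventilated a, Pcna and Dut without either, Top2a without either or spontaneous b, and Cdk1 without any of the 4 samples at 21% oxygen (adjusted p = 0.05 to 0.15). The T lymphocyte sum given above was also higher in these lungs, and its part in the division genes was not tested.

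Of 13 tested interferon genes 3 rose and 10 were not called (median 0.14). Of 7 tested genes of the class I pathway 2 rose and 5 were not called (median 0.42), and none of 9 of class II was called. The first and second of these lists share 2 tested genes, and Psmb9 is counted in both. Irf7, the transcription factor that amplifies type I interferon, read 2391.2 and 2385.8 in ventilated lungs and 1061.1 and 613.9 in spontaneous lungs (1.52, SE 0.26, adjusted p = 0.0097), and its dimmer probe set gave 0.85 and was not called. Tap2, which carries peptides into the endoplasmic reticulum, read 1964.6 and 1767.1 against 981.0 and 1121.9 (0.81, SE 0.14, adjusted p = 0.011). The immunoproteasome genes Psmb9 and Psme2 changed by 0.64 (SE 0.13, adjusted p = 0.016) and 0.79 (SE 0.15, adjusted p = 0.015).

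Of 21 proteasome and ubiquitin genes 3 rose, against 6.66% of all tested genes. Among them were the core subunit genes Psma7 (0.74, SE 0.12, adjusted p = 0.0079) and Psma5 (0.71, SE 0.14, adjusted p = 0.016). The dimmer probe sets of Psma5 gave 0.69 and 0.89 and were not called. Tap2 lost its call without ventilated a (adjusted p = 0.069) and Psma7 without ventilated b (0.05). Irf7 lost it without either ventilated sample, Psmb9 without either or spontaneous b, Psma5 without either or spontaneous a, and Psme2 without any of the 4 samples at 21% oxygen (0.051 to 0.094).

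**Figure D4:**
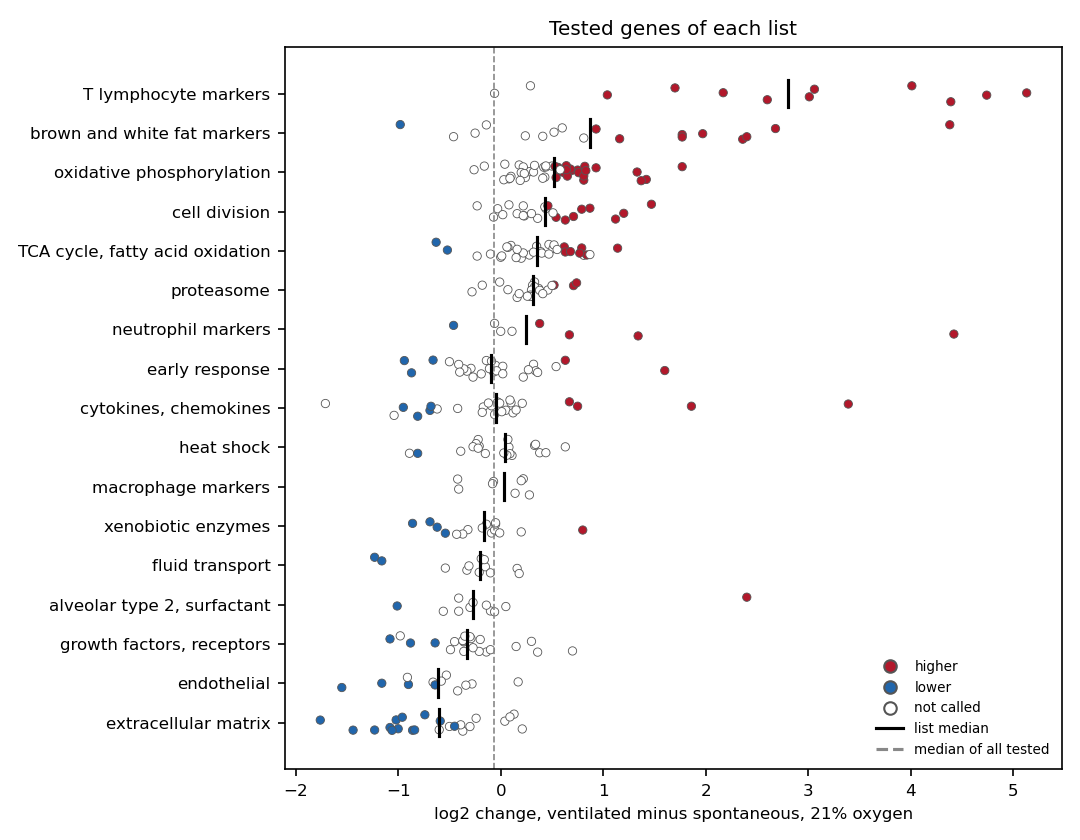
Change of each tested gene (horizontal axis, log2, ventilated minus spontaneous at 21% oxygen) in 17 gene lists. Red points were called higher, blue points lower and open points were not called, the black bar is the list's median and the dashed line the median of all tested probe sets. T lymphocyte genes reached 5.13, respiration genes lay mostly above the dashed line, and endothelial and matrix genes lay mostly below it.

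Genes of the extracellular matrix fell, 13 of 23 tested with none higher (median -0.60). Lamb2, a laminin chain of vascular and alveolar basement membranes, read 671.0 and 618.0 in ventilated lungs and 2207.1 and 2349.7 in spontaneous lungs (-1.76, SE 0.14, adjusted p = 3.2e-04), and its dimmer probe set gave -0.83 and was not called. Fn1, fibronectin, read 2530.7 and 2486.2 against 6409.6 and 7378.5 (-1.44, SE 0.12, adjusted p = 4.3e-04). Col1a2, a chain of type I collagen, read 2911.2 and 3124.9 against 6928.1 and 7380.9 (-1.23, SE 0.11, adjusted p = 4.4e-04).

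Col5a2, of the collagen that sets fibril diameter, and Lox, the lysyl oxidase that cross-links collagen and elastin, changed by -1.0 (SE 0.12, adjusted p = 0.0023) and -0.84 (SE 0.11, adjusted p = 0.003). All 4 probe sets of Lox were negative, and 2 of them were called. Outside the list, Ltbp1, which tethers latent TGF-beta to matrix, read 433.2 and 317.1 in ventilated lungs and 1305.5 and 1321.2 in spontaneous lungs (-1.72, SE 0.17, adjusted p = 9.7e-04), and Aebp1, a collagen-binding protein, read 433.1 and 205.4 against 2153.5 and 1802.1 (-2.56, SE 0.34, adjusted p = 0.0036). These 7 genes kept their calls when any 1 of the 8 samples was left out. The number of matrix genes that fell ranged from 8 to 15 when 1 sample was left out, with 8 without ventilated b, and was 5 with the lot line as a block.

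Endothelial genes fell in 4 of 12 tested, with none higher (median -0.61). Ace, the angiotensin-converting enzyme of lung capillaries, read 2356.4 and 2412.7 in ventilated lungs and 5512.3 and 5215.4 in spontaneous lungs (-1.16, SE 0.11, adjusted p = 9.7e-04). Thbd, the anticoagulant thrombomodulin, read 384.0 and 432.2 against 977.0 and 1655.5 (-1.55, SE 0.24, adjusted p = 0.0068), with a second probe set at -0.44 that was not called. Acvrl1, a BMP receptor of endothelium, changed by -0.90 (SE 0.16, adjusted p = 0.01) and Vegfa, which alveolar epithelium secretes to maintain capillaries, by -0.64 (SE 0.15, adjusted p = 0.025). The dimmer tested probe sets of Vegfa gave -0.62 and -0.52 and were not called.

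The prostaglandin transporter gene Slco2a1 read 2329.8 and 3079.5 in ventilated lungs and 8144.8 and 6010.3 in spontaneous lungs (-1.37, SE 0.19, adjusted p = 0.0043), and the receptor gene Notch1 changed by -1.31 (SE 0.15, adjusted p = 0.0021). The dimmer probe set of Notch1 gave -1.47 and was not called. Fgfr1, a fibroblast growth factor receptor, changed by -1.08 (SE 0.15, adjusted p = 0.0046). Acvrl1 lost its call without ventilated b or spontaneous b (adjusted p = 0.053 to 0.064) and Vegfa without any of the 4 samples at 21% oxygen (0.076 to 0.1), and the number of endothelial genes that fell was 2 without ventilated b and 2 without spontaneous b. With the lot line as a block 1 endothelial gene, Ace, remained called.

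On the epithelial side, 2 sodium channel genes fell, Scnn1a and Scnn1g, while Scnn1b was too dim to test (-0.3 and -10.7 in ventilated lungs against -151.1 and 110.5 in spontaneous lungs). Scnn1a, the pore-forming subunit through which the alveolus absorbs sodium, read 1712.2 and 1703.0 in ventilated lungs and 3918.6 and 4215.4 in spontaneous lungs (-1.23, SE 0.12, adjusted p = 7.3e-04). Scnn1g, another subunit, read 255.4 and 242.9 against 583.2 and 627.9 (-1.16, SE 0.21, adjusted p = 0.011), and lost its call without ventilated a, ventilated b or spontaneous b (0.052 to 0.069). The other 10 tested fluid transport genes were not called.

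Nkx2-1, the transcription factor that keeps lung epithelial identity, read 1607.6 and 1475.2 in ventilated lungs and 2910.4 and 3388.1 in spontaneous lungs (-1.01, SE 0.14, adjusted p = 0.0041). The surfactant genes Sftpb and Sftpc were not called, with values of -0.41 (SE 0.25, adjusted p = 0.3) and -0.56 (SE 0.24, adjusted p = 0.17). Sftpb read 15103.6 and 16391.1 in ventilated lungs and 23280.8 and 18873.5 in spontaneous lungs, among the brightest signals of these arrays. Ager, the receptor that marks alveolar type 1 cells, gave -0.38 (SE 0.15, adjusted p = 0.14), and none of 5 tested type 1 genes was called. Tjp1, the tight junction scaffold ZO-1, fell to 1146.1 and 981.6, against 2483.0 and 2613.7 in spontaneous lungs (-1.23, SE 0.14, adjusted p = 0.0017).

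Of the other genes named for a large fall, Sptan1, the non-erythroid spectrin, read 414.1 and 380.9 in ventilated lungs and 1504.1 and 1564.5 in spontaneous lungs (-1.85, SE 0.17, adjusted p = 6.7e-04). Myh11, smooth muscle myosin, read 457.8 and 581.0 against 2385.0 and 1824.0 (-1.93, SE 0.25, adjusted p = 0.0033), the only one of 10 tested smooth muscle genes that was called. Iqsec1, an exchange factor for the small GTPase Arf6, changed by -2.23 (SE 0.20, adjusted p = 4.9e-04), Wdfy3, which links autophagy to protein aggregates, by -2.04 (SE 0.17, adjusted p = 3.8e-04), and the guidance ligand gene Slit3 by -2.16 (SE 0.24, adjusted p = 0.0017). Their values did not overlap between the groups, as in 60.8% of all tested genes.

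**Figure D5:**
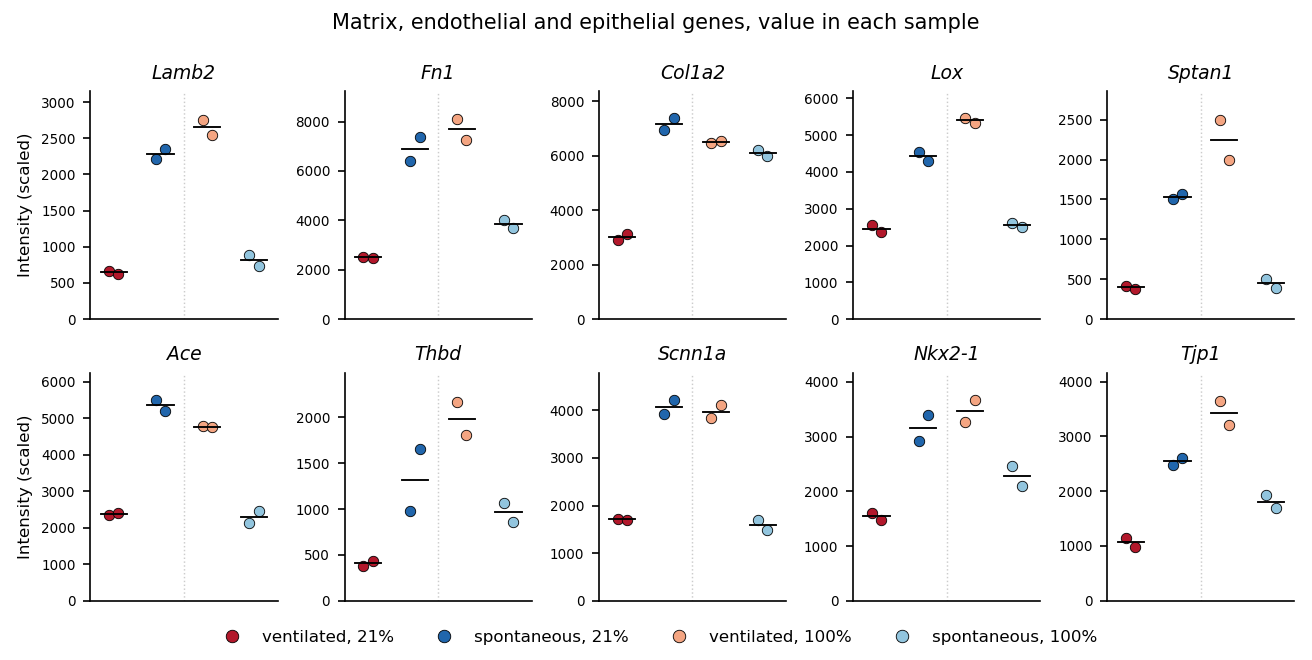
Intensity of 10 matrix, endothelial, epithelial and structural genes (vertical axis, linear, arrays scaled to a trimmed mean of 800) in each sample, ventilated and spontaneous at 21% oxygen, then ventilated and spontaneous at 100% oxygen. Points are samples and bars are means of 2. In every panel the ventilated lungs at 21% oxygen lie below the spontaneous ones, and in most panels the ventilated lungs at 100% oxygen lie above the spontaneous ones there.

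Enzymes of xenobiotic metabolism fell in 4 of 16 tested and rose in 1. Cyp2b2, a cytochrome P450, read 8455.3 and 8446.8 in ventilated lungs and 15723.8 and 15130.1 in spontaneous lungs (-0.86, SE 0.13, adjusted p = 0.0052). Whether closely related P450 genes share this signal was not tested. Cyp2a3 and Cyp4b1, P450s of the airways, changed by -0.69 (SE 0.12, adjusted p = 0.0092) and -0.62 (SE 0.14, adjusted p = 0.025). Cyp1a1, the classical aryl hydrocarbon receptor target, went the other way, at 1214.8 and 1083.2 against 695.4 and 596.5 (0.80, SE 0.20, adjusted p = 0.038).

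Of 26 antioxidant genes 3 rose, against 6.66% of all tested genes. They included Sod2, the mitochondrial superoxide dismutase (0.62, SE 0.12, adjusted p = 0.015), and the pentose phosphate enzyme gene Tkt (0.70, SE 0.13, adjusted p = 0.011). Hmox1, the inducible haem oxygenase, read 1382.2 and 1198.7 in ventilated lungs and 1331.9 and 1516.9 in spontaneous lungs (-0.14, SE 0.14, adjusted p = 0.56). Cyp2b2 kept its call when any 1 of the 8 samples was left out. Cyp2a3 lost its call without ventilated b and Tkt without ventilated a, Sod2 without either or spontaneous a, Cyp4b1 without ventilated b or either spontaneous sample, and Cyp1a1 without any of the 4 samples at 21% oxygen or spontaneous a at 100% oxygen (adjusted p = 0.05 to 0.18). The number of xenobiotic genes that fell was 1 without ventilated b and 2 without spontaneous a.

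The change with ventilation was set against that at 100% oxygen through the difference of the changes, 21% minus 100%, in the same fit. That difference was called in 1439 of 5244 probe sets (27.4%), of which 551 were positive and 888 negative, and its median over all probe sets was -0.15. Under quantile normalization the median was 0.005 and the split 680 positive to 714 negative, and under cyclic loess 0.041 and 683 to 656. Of the 222 genes that fell at 21% oxygen, 190 (85.6%) had the opposite sign at 100% oxygen, as had 154 of the 212 that rose (72.6%), against 62.2% of all tested genes. For 354 of the 434 called genes the difference itself was called.

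Spontaneous lungs at 21% oxygen and ventilated lungs at 100% oxygen were high together in many genes that fell. Lamb2 read 671.0 and 618.0 in ventilated and 2207.1 and 2349.7 in spontaneous lungs at 21% oxygen, and 2758.1 and 2550.9 in ventilated and 891.8 and 736.2 in spontaneous lungs at 100% oxygen, a difference of -3.42 (adjusted p = 4.2e-05). Scnn1a changed by -1.23 at 21% oxygen and by 1.30 at 100% oxygen, a difference of -2.53 (adjusted p = 7.6e-05). Spontaneous lungs at 21% oxygen and ventilated lungs at 100% oxygen carried the lot line, except on one of the 2 arrays of ventilated sample b, and its part in this pattern was not tested. On that sample's arrays with and without the line Lamb2 read 2566 and 2535, Ace 4839 and 4669, and Scnn1a 4049 and 4164. These values compare arrays of the same sample and do not test the line's part in the other samples.

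Il6 and Ccl2 gave -0.13 and -0.25 with ventilation at 100% oxygen. There Il6 read 431.6 and 424.7 in ventilated and 485.0 and 461.4 in spontaneous lungs. The difference was 3.53 for Il6 (adjusted p = 1.6e-04; 5.74 and 2.65 with the smaller and larger offset) and 2.11 for Ccl2 (adjusted p = 6.6e-04). Egr1 rose more with ventilation at 100% oxygen (1.85) than at 21% oxygen (0.63), a difference of -1.23 (adjusted p = 0.0024). For Selp, Il1b, Ccl5 and Cyp2b2 the difference was not called, with values of 0.52 (adjusted p = 0.12), 0.85 (0.055), 0.09 (0.78) and -0.24 (0.34).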

How the data were processed

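Lung RNA of 8 rat samples in 4 groups was measured on 9 arrays, and this comparison used the 4 samples at 21% oxygen. The authors deposited one table of array intensities per probe set. Its scaling to a trimmed mean of 800 was read from the values, the scanner software is not given in the sources used here, and the number of arrays limits the precision.

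From the deposited intensities, values below 0 were set to 0 and log2(intensity + 40) was taken (the offset is 5% of 800). Controls were dropped, as were the dimmest 40% by mean level, and 5244 probe sets were tested. A group-means model of all 8 samples was fitted with limma 3.58.1 (R 4.3.3, eBayes with a trend), with 4 residual degrees of freedom and Benjamini-Hochberg adjustment over all tested probe sets. In simulated data with normal noise of the observed spread, 71, 78 and 51 of 5244 probe sets changed by 1.5-fold, 2-fold and 4-fold. Of these 11.3%, 60.3% and 84.3% were called, with 6 false calls. Fewer probe sets changed there than the 760 called here, so the rates need not hold for these data. Python 3.11.15 made the tables and figures.

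A gene was taken from its brightest probe set with 1 symbol, 6985 of 7006 such probe sets matching a current RefSeq gene. The members and lists were chosen with earlier results of these data known. Genes named were, by rule, up to 25 called genes of largest change in each direction (mean of at least 400 in the higher group), up to 6 called and 3 other members of each list, a fixed set of lung injury genes, and up to 8 genes in each direction with the smallest p of the difference. Lipe, Cpt1a, Acsl3, Rag1, Cd28, Plin1, Dio2 and Scnn1b were named after their values were seen. The letters a and b are not known to pair samples. Deviations from the group means were little correlated between samples of the same letter (-0.128 to 0.066, and -0.081 for this comparison). Of 872 genes with several tested probe sets, 374 disagreed in direction or call. Other normalizations, offsets, filters, sample sets, blocks and thresholds, and leaving out each sample, were tried. Promoter windows were taken from RefSeq (GRCr8).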

Additional observations from a re-analysis of the deposited data

Results flagged for a closer look

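The change with ventilation at 21% oxygen was compared with that at 100% oxygen for each named gene, and in 81 of the 104 tested the difference of the changes (21% minus 100%, log2) was called by limma with Benjamini-Hochberg adjustment, against 27.4% of all 5244 probe sets. In 72 of the 81 the changes had opposite signs, against 62.2% of all tested genes. Most named genes were chosen because they were called at 21% oxygen (98 of 104), and 14 also for the smallest p of this difference, so nothing is read from these shares. All 81 kept the sign of the difference under quantile and cyclic loess normalization, and 80 of them, all but S100a8, kept the call under both.

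Among inflammatory and early response genes the difference was 3.53 for Il6, 2.11 for Ccl2, 0.71 for Il1r2, -1.99 for Cx3cl1, -2.31 for Tgfb1, 0.96 for Crem, -2.37 for Klf4, -1.30 for Zfp36l1, -1.55 for Zfp36, -1.23 for Egr1 and -0.99 for Fos. Among neutrophil and T lymphocyte genes it was 2.72 for RatNP-3b, -1.35 for Lcn2, 0.89 for S100a8, 5.32 for Thy1, 3.34 for Cd3g, 4.34 for Cd3d, 3.47 for Lck, 2.68 for Cd247, 1.79 for Cd8b, 5.07 for Cd8a and 1.97 for Cd5.

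Of the 81 genes Ucp1 differed most, and the fat genes gave 8.31 for Ucp1, 2.77 for Scd, 6.53 for Fabp4, 3.74 for Cox8b, 5.03 for Cidea, 2.80 for Fabp3 and -2.31 for Lipe. Ucp1 read 6179.1 and 6247.4 in ventilated and 248.0 and 271.2 in spontaneous lungs at 21% oxygen, but 37.8 and 31.1 in ventilated and 1098.5 and 1087.2 in spontaneous lungs at 100% oxygen. The muscle genes and Krt4 gave 4.12 for Acta1, 4.0 for Ckm, -3.82 for Myh11 and 2.44 for Krt4. Krt4 was listed below 0 in both ventilated groups, so its value only sets 1139.8 and 1214.3 in spontaneous lungs at 21% oxygen against 6288.5 and 6826.3 in spontaneous lungs at 100% oxygen. Where a group lay near 0 the size follows the offset, with 5.74 and 2.65 for Il6, 3.45 and 2.33 for RatNP-3b, 9.25 and 7.57 for Ucp1 and 7.24 and 5.94 for Fabp4 at offsets of 1% and 10% of the trimmed mean. Cd8a, also near 0 in other groups, gave 4.43 at the offset of 10% and was too dim to test at 1%.

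In respiration and fatty acid oxidation the difference was 1.69 for Ndufa9, 1.89 for Cox7b, 1.48 for Uqcrfs1, 0.95 for Ndufb8, 2.05 for Ndufc2, 1.62 for Acadl, 1.39 for Decr1, 0.77 for Acadm, -1.66 for Cpt1a and -0.96 for Acsl3. In cell division, proteolysis and redox metabolism it was 1.63 for Ccnb1, 0.81 for Pcna, 0.99 for Dut, 1.14 for Psma7, 0.98 for Psma5, 1.34 for Psme2, 0.68 for Tkt, -0.67 for Hmox1 and -1.02 for Cyp4b1.

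The matrix and endothelial genes gave negative differences, of -3.42 for Lamb2, -2.43 for Fn1, -1.33 for Col1a2, -1.90 for Col5a2, -1.91 for Lox, -3.31 for Ltbp1, -4.73 for Aebp1, -2.20 for Ace, -2.57 for Thbd, -1.65 for Acvrl1, -0.89 for Vegfa, -1.90 for Slco2a1, -2.29 for Notch1 and -2.41 for Fgfr1. Epithelial and structural genes gave -2.53 for Scnn1a, -2.85 for Scnn1g, -1.61 for Nkx2-1, -2.14 for Tjp1, -1.78 for Muc1, -4.08 for Sptan1, -4.39 for Iqsec1, -3.87 for Slit3 and -3.16 for Wdfy3. The remaining genes gave -1.54 for Per2, 2.08 for Dbp, -1.05 for Pdia4, 1.98 for Pdk1, 1.95 for Reg3g and 2.01 for Ttr. The groups hold 2 samples each, so no sample was tested as an outlier.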

How the results depend on the processing

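The number of probe sets called with ventilation at 21% oxygen stayed within 1.5 times of 760 under both other normalizations, both other offsets, the filter of 60%, either single array of the ventilated sample b at 100% oxygen, the fit with the letter as a replicate block (586 called) and the fit with no variance trend. With no filter it was 490 (236 higher, 254 lower), with only the 2 groups compared 473 (220 and 253), with the lot line as a block 106 (50 and 56) and at an adjusted p under 0.10 it was 1206 (567 and 639). Leaving out 1 sample gave 228 to 709 called (87 to 336 higher, 141 to 373 lower), the lowest without ventilated b. The difference between oxygen levels was called in 980 to 1328 probe sets with 1 sample left out, in 1265 with the replicate block, and in 159 with the lot line as a block. The fit with the lot line used all 9 arrays and counted the 2 arrays of ventilated sample b at 100% oxygen as separate samples. It can separate line and ventilation only through the ventilated arrays at 100% oxygen. Ventilated sample a there had no array without the line, so line and sample are partly mixed in that estimate. The cause of the lower counts was not tested. Of the 98 named genes that were called, 31 kept their call under each of the 21 alternatives in which they were tested. The filter of 60% left 84 of the 98 to test, and all 84 kept their call there. The call was kept by 47 when any sample was left out, by 89 with the replicate block and by 31 with the lot line as a block. No called gene changed sign. The uncalled S100a9 changed sign with the lot line as a block (-0.15), without ventilated b (-0.03) and without spontaneous b (-0.11; -0.11 to 0.12 with any 1 sample left out), and Fos without ventilated b (-0.06) and without spontaneous b (-0.04). Signal near 0 limits the dim genes: those listed below 0 in a group have no fold.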

Other observations

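Of 6 tested airway genes 2 rose and 1 fell, against 6.66% and 6.98% of all tested genes. Reg3g, a secreted antibacterial lectin, read 807.0 and 816.7 in ventilated lungs and 233.8 and 252.6 in spontaneous lungs at 21% oxygen (1.59, SE 0.19, adjusted p = 0.0026 by limma). Tff3, a trefoil peptide of goblet cells, changed by 1.23 (SE 0.25, adjusted p = 0.019), while Muc1, a membrane mucin, changed by -0.77 (SE 0.14, adjusted p = 0.012). Of 7 tested clock genes, the repressor gene Per2 fell to 194.7 and 142.5, against 421.6 and 463.1 in spontaneous lungs (-1.22, SE 0.21, adjusted p = 0.0086), and the output gene Dbp read 1211.8 and 1392.0 in ventilated and 454.9 and 439.3 in spontaneous lungs (1.46, SE 0.30, adjusted p = 0.019).

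No heat shock or endoplasmic reticulum chaperone gene was called higher. Hspa1a, the inducible chaperone, was the one called of 20 tested heat shock genes and fell to 3964.5 and 3965.9, against 6936.0 and 6994.9 in spontaneous lungs (-0.81, SE 0.16, adjusted p = 0.017), and Pdia4 was the one called of 13 chaperones of the endoplasmic reticulum (-0.56, SE 0.13, adjusted p = 0.024). Gadd45a, a growth arrest gene, changed by 0.50 (SE 0.12, adjusted p = 0.031), and 2 of its 4 probe sets were called. Pdk1, a pyruvate dehydrogenase kinase gene, read 329.2 and 367.7 in ventilated lungs and 80.4 and 97.7 in spontaneous lungs (1.59, SE 0.25, adjusted p = 0.007). Ttr, the thyroxine carrier transthyretin, read 491.9 and 429.8 against 59.1 and 112.3 (2.02, SE 0.24, adjusted p = 0.0023).

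Reg3g and Ttr kept their calls when any 1 of the 8 samples was left out. Per2 and Pdk1 lost theirs without ventilated b, Muc1 without ventilated b or spontaneous b, Tff3 without ventilated b or either spontaneous sample, and Pdia4 without either ventilated sample or spontaneous b. Dbp, Hspa1a and Gadd45a lost theirs without any of the 4 samples at 21% oxygen. The adjusted p was then 0.054 to 0.14.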
